A study of Homo sapiens with 6 samples.

Results

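GAS5, SNHG1, SNHG5, SNHG6, SNHG7, SNHG8, SNHG12 and SNHG15 are host RNAs of small nucleolar RNAs (snoRNAs), and their spliced transcripts were followed in human HEK293T cells before and after inhibition of mTOR. The members were 8 genes of 20166 named genes, taken by gene name with the values of these libraries known, and they held 12 transcript rows of 38438. Each host row was chosen by its RefSeq accession, because the mRNA-seq table files 17 snoRNA rows under the names of their hosts. The study sequenced RNA crosslinked to LARP1, an RNA-binding protein of 5′TOP mRNAs, by PAR-CLIP with 1 library per condition, and it sequenced total RNA by strand-specific mRNA-seq with 2 libraries per condition. Growing cells received no inhibitor, and mTOR-inactive cells received PP242, which blocks the kinase activity of mTOR, at 2.5 µM for a time that is not given in the sources used here. For PAR-CLIP, cells of both conditions took up 100 µM 4-thiouridine for 14 hr and were irradiated at 150 mJ/cm2, and the mRNA-seq cells received no 4-thiouridine. HEK293T is an established line from human embryonic kidney, and nothing in the labels says whether the 2 mRNA-seq libraries of a condition came from separate cultures, so errors below measure the spread between libraries, which may be technical.

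Genes of this kind are transcribed for the RNAs in their introns. After splicing, the introns are trimmed to box C/D or box H/ACA snoRNAs, which guide 2′-O-methylation and pseudouridylation of ribosomal RNA, while the exons are joined into a spliced RNA with short reading frames that is usually removed by nonsense-mediated decay once ribosomes engage it. Many such hosts begin with a 5′TOP, a C followed by a run of pyrimidines at the start of the RNA, the feature by which mTOR controls ribosomal protein mRNAs, and GAS5 was named for its accumulation in growth-arrested cells.

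The annotated starts are shown first because the 5′TOP is a feature of sequence. The most frequent transcript start of each gene in GENCODE v44 on GRCh37 was read with 10 bases before it and 20 bases of the first exon, 5′ to 3′ on the strand of the RNA, and capitals mark a C within 5 bases of that start with the unbroken pyrimidines after it, at least 4 of them. GAS5 (chr1:173837108-173837137, minus strand), SNHG12 (chr1:28908366-28908395, minus), SNHG7 (chr9:139622617-139622646, minus) and SNHG8 (chr4:119199903-119199932, plus) held such a run.
GAS5: accatactgtCTTTTCgaggtaggagtcga
SNHG12: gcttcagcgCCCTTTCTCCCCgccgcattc
SNHG7: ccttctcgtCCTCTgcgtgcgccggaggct
SNHG8: aggcctcggCCTTTCacattcgggaagcgt

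The corresponding windows of SNHG1 (chr11:62623338-62623367, minus), SNHG5 (chr6:86388447-86388476, minus) and SNHG15 (chr7:45026248-45026277, minus) held no run by this rule.
SNHG1: gagattcgttctcatttttctactgctcgt
SNHG5: ggagctactggctgcgcacttcggtctttt
SNHG15: cgaggtgcgcggcgcagcgcgcggcgtcag

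SNHG6 held a run of 11 bases, and its sequence is not printed. The run was thus present at 5 of 8 members, and at 19.1% of 18702 lncRNA genes and 20.1% of 20163 protein-coding genes read in the same way, with only the RNA strand searched. A start is uncertain where annotated transcripts disagree: 50 of 91 GAS5 transcripts shared the start shown, against 2 of 14 for SNHG15. RefSeq starts (GRCh38.p14), held for 6 of the members, gave a run at SNHG12, SNHG8, SNHG5 and SNHG7 and none at GAS5 or SNHG1, so the verdict for GAS5 and for SNHG5 depended on the annotation.

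In growing cells the highest transcript of each member ranged from 18.8 RPKM (reads per kilobase of transcript, scaled to the mapped reads of the library) for SNHG8 to 129.6 RPKM for GAS5. The order was GAS5, SNHG5, SNHG1, SNHG6, SNHG15, SNHG12, SNHG7 and SNHG8, and no neighbours in that order overlapped between their libraries, although the nearest libraries of GAS5 and SNHG5 were 0.911 RPKM apart. The order was the same in mTOR-inactive cells, again without overlap. Fewer cells and less RNA per cell cannot be told apart in bulk libraries, and RPKM are shares of a library, not amounts per cell.

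**Figure D1:**
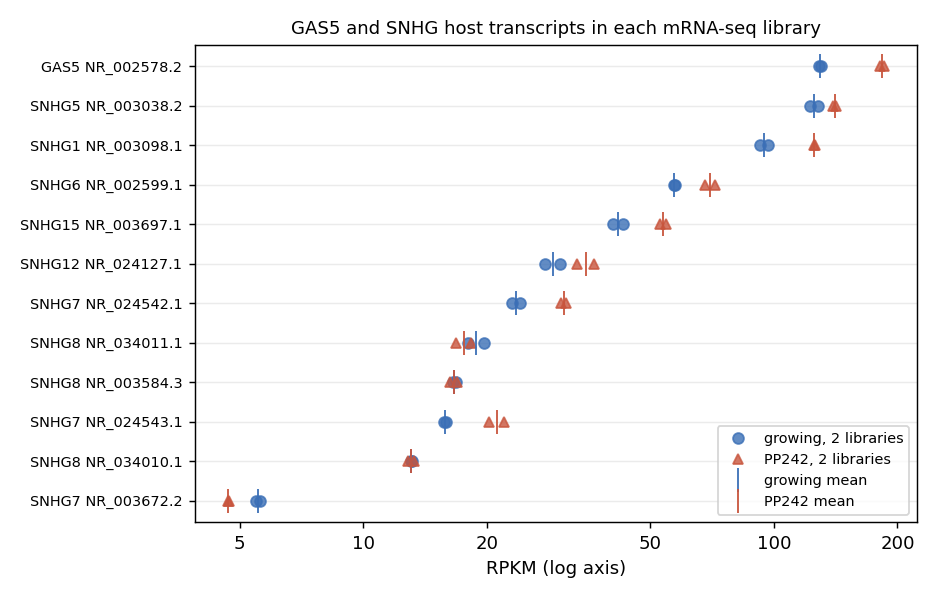
RPKM of the 12 host transcript rows (log axis) in the 2 growing (circles) and 2 PP242 (triangles) mRNA-seq libraries, with vertical ticks at the group means. The PP242 libraries lay above the growing libraries in 8 rows and below them in the SNHG7 row NR_003672.2, and the conditions overlapped in the 3 SNHG8 rows.

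After PP242, 7 of the 8 highest transcripts were higher in both treated libraries than in both growing libraries, by 1.12 to 1.42 times, and SNHG8 was not. These members were listed with this contrast known, so their differences are given as values with a standard error and without a test. In the fit across all transcripts 7 of 8 passed an adjusted p of 0.05 upward and 0 downward, where 3.95% of 11738 genes did so upward and 8.36% downward. Both PP242 libraries lay above both growing libraries for 27.7% of genes and below them for 31.6%. Over the 12 rows, 8 lay above and 1 below, where 28.5% and 30.0% of all transcripts did. Nothing is read from these counts.

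GAS5 (NR_002578.2), a decoy for steroid receptors as well as a host of 10 box C/D snoRNAs, gave 130.4 and 129 RPKM in growing cells and 185 and 182 RPKM after PP242. The means of 129.6 ± 1.19 and 183 ± 2.39 RPKM (SD, n = 2) were 1.42-fold apart, a log2 change of 0.50 (SE 0.02) on the log2(RPKM + 1) scale used throughout. It was the largest change of the 12 rows, and 38 of 11738 genes had a larger rise in the highest transcript. SNHG1 (NR_003098.1), which carries 8 box C/D snoRNAs, gave 97.0 and 92.5 RPKM in growing cells and 125 and 126 RPKM after PP242. Its means of 94.7 ± 3.16 and 126 ± 0.582 RPKM differed 1.33-fold, with a log2 change of 0.40 (SE 0.03). The growing libraries of SNHG1 lay further apart than its treated ones, and both lay well below them.

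SNHG5 (NR_003038.2), the host of the paired snoRNAs SNORD50A and SNORD50B, stood next to GAS5 in level. It gave 128 and 123 RPKM in growing cells and 142 and 139 RPKM after PP242, or 125 ± 3.61 against 141 ± 1.85 RPKM. The log2 change was 0.17 (SE 0.03), beside 0.50 for GAS5. SNHG6 (NR_002599.1), the host of SNORD87, gave 57.0 and 57.5 RPKM in growing cells and 71.8 and 67.8 RPKM after PP242. The log2 change of SNHG6 was 0.28 (SE 0.03), and here the treated libraries were the more spread pair.

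The hosts of box H/ACA snoRNAs were less abundant. SNHG15 (NR_003697.1), which hosts SNORA9, gave 42.8 and 40.5 RPKM in growing cells and 54.6 and 52.7 RPKM after PP242, a log2 change of 0.36 (SE 0.04). SNHG12 (NR_024127.1), which hosts 3 box H/ACA snoRNAs and SNORD99, gave 30.1 and 27.7 RPKM in growing cells and 36.5 and 33.1 RPKM after PP242. Its log2 change of 0.26 had the largest error of the rows (SE 0.06), and the higher growing library was 3.01 RPKM below the lower treated one.

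SNHG7, which hosts SNORA17A and SNORA17B, was listed as 3 transcripts that did not move together. The most abundant, NR_024542.1, gave 24.0 and 23.0 RPKM in growing cells and 31.2 and 30.2 RPKM after PP242, a log2 change of 0.37 (SE 0.03). NR_024543.1 gave 15.9 and 15.7 RPKM in growing cells and 22.1 and 20.2 RPKM after PP242, a log2 change of 0.40 (SE 0.04). NR_003672.2 gave 5.48 and 5.60 RPKM in growing cells and 4.67 and 4.71 RPKM after PP242, so both treated libraries were lower, and the log2 change was -0.20 (SE 0.03). A read that matched several transcripts was divided evenly among them, so rows of 1 gene share reads, and how much of the opposite sign lies in reads particular to NR_003672.2 was not tested.

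SNHG8, which hosts SNORA24, was the exception among the genes. Its highest row, NR_034011.1, gave 18.0 and 19.6 RPKM in growing cells and 18.3 and 16.8 RPKM after PP242, so the groups overlapped. The log2 change was -0.10 (SE 0.05). NR_003584.3 gave 16.8, 16.5, 16.9 and 16.3 RPKM in the same order of libraries, and NR_034010.1 gave 13.1, 13.1, 13.3 and 12.8 RPKM, with log2 changes of -0.0041 and -0.0063.

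By the likeness of the pattern over the 4 libraries (root mean square distance of centred log2(RPKM + 1) values), HJURP, RP11-261C10.3 and H2BC12 were nearest to GAS5 among 11730 genes, at distances of 0.0099, 0.020 and 0.024. HJURP, the chaperone of the centromeric histone CENP-A, gave 13.3 and 13.4 RPKM in growing cells and 19.5 and 19.0 RPKM after PP242. RP11-261C10.3 gave 3.10 and 3.18 RPKM in growing cells and 4.81 and 4.71 RPKM after PP242. H2BC12, a histone H2B gene, gave 39.2 and 37.1 RPKM in growing cells and 55.1 and 55.1 RPKM after PP242. With 2 conditions the distance follows the size of the change, and 76 genes lay within 0.1.

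Few snoRNA rows of the same genes passed a test. Of 26 snoRNA rows found for the members, 23 passed the filter of a mean of 1 RPKM, and 19 of these had a log2 change below 0. A change below 0 was fitted for 50.6% of the 21014 transcripts tested. In limma with Benjamini-Hochberg adjustment over all transcripts, 2 rows fell and 0 rose, where 6.45% of transcripts fell and 3.48% rose. With 1 library left out at a time the count that fell was between 2 and 7, and without a filter on RPKM it was 0. With a mean of at least 5 RPKM, 2 rows rose and 0 fell. The rows that had fallen, SNORD77 and SNORD44, were no longer tested there. Their means were 2.40 and 4.63 RPKM in growing cells and 0.716 and 1.90 RPKM after PP242.

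In GAS5, the row of SNORD77 gave 1.99 and 2.82 RPKM in growing cells and 0.961 and 0.471 RPKM after PP242, and it fell by 0.99 on the log2 scale (SE 0.16, limma adjusted p = 0.0193). SNORD44 gave 5.98 and 3.29 RPKM in growing cells and 1.92 and 1.88 RPKM after PP242, and it fell by 0.91 (SE 0.21, limma adjusted p = 0.047). The most abundant snoRNA row of GAS5, SNORD47, gave 20.1 and 18.6 RPKM in growing cells and 21.7 and 17.1 RPKM after PP242, a log2 change of -0.0044 (SE 0.10). SNORD76 and SNORD80 likewise overlapped between conditions, while the spliced GAS5 RNA did not. The fall of SNORD77 did not pass without growing library 2 (adjusted p = 0.0568 in limma), and that of SNORD44 did not pass without either PP242 library, with adjusted p of up to 0.098 over the libraries left out in limma. SNORD44 also did not pass with libraries scaled to 1 median or with quantile normalization.

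In SNHG1, 7 of 8 snoRNA rows had values below 0 on the log2 scale and 0 passed the threshold in either direction. SNORD22 gave 16.1 and 15.0 RPKM in growing cells and 17.2 and 17.5 RPKM after PP242, a log2 change of 0.15 (SE 0.04, limma adjusted p = 0.0719). SNORD31 gave 3.57 and 3.37 RPKM in growing cells and 2.59 and 1.69 RPKM after PP242, a log2 change of -0.53 (SE 0.13, limma adjusted p = 0.0551). Neither difference passed the threshold. SNORA24 of SNHG8 gave 5.56 and 4.81 RPKM in growing cells and 3.80 and 2.63 RPKM after PP242, a log2 change of -0.57 (limma adjusted p = 0.0512). In SNHG12, 3 of 4 rows had a log2 change above 0, with the libraries of the conditions apart in 2 of them, and SNORA61 gave 17.5 and 16.96 RPKM in growing cells and 20.5 and 18.8 RPKM after PP242 (log2 change 0.18, limma adjusted p = 0.067). Rows of snoRNAs stood at 0.405 to 19.4 RPKM in growing cells, below the host transcript in each case, and they are short, so that few reads stand behind the lowest. How well these mRNA-seq rows reflect the mature snoRNAs was not tested. The rows therefore do not show that snoRNAs are scarcer than their hosts, or that the mature snoRNAs fell.

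**Figure D2:**
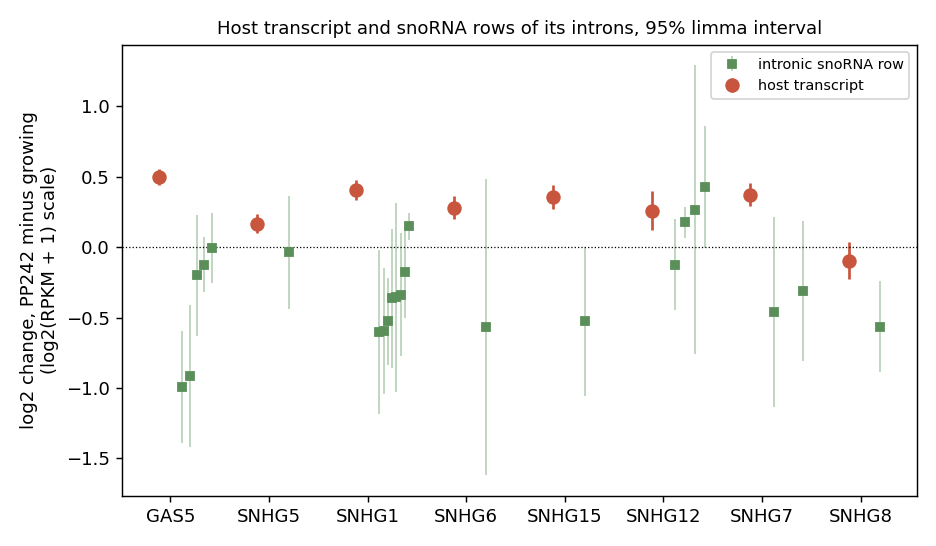
Log2 change after PP242 on the log2(RPKM + 1) scale of the highest transcript of each host (circles) and of the snoRNA rows of its introns that passed the filter (squares), with 95% limma intervals as bars. Of 23 snoRNA rows, 19 lie below 0, and SNORD77 and SNORD44 of GAS5 lie lowest, at -0.99 and -0.91.

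LARP1 PAR-CLIP listed 3948 site rows in growing and 3947 in mTOR-inactive cells, with 1 library each and so no error between libraries. A site can be listed once per transcript. With rows of a gene at the same RPM counted once, there were 2432 and 2566 distinct sites. The totals in the paper, given after an RPM threshold, are smaller. Sites are given in RPM, reads scaled to the mapped reads of the library, and positions are nucleotides of the RefSeq transcript. In growing cells SNHG12 held the one site on a member, at nucleotides 628 to 642, with 0.0129 RPM, a value that sites on other genes also carry, and 10.1% of expressed genes had some site listed there. In mTOR-inactive cells 3 members had one, where 11.1% of genes did. They were GAS5, SNHG1 and SNHG7, each with a site of at least 1 RPM.

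The GAS5 site, at nucleotides 603 to 625 of NR_002578.2, held 2368 RPM, or 12.9 RPM per RPKM of the transcript. It stood at rank 18 of 2566 distinct sites in the mTOR-inactive library and at rank 10 of 579 on noncoding accessions. SNHG1 held sites at nucleotides 1024 to 1041 (145 RPM, or 1.15 RPM per RPKM) and 892 to 913 (0.706 RPM, or 0.0056 RPM per RPKM). SNHG7 held 1 site of 29.5 RPM, listed at nucleotides 714 to 731 of NR_024542.1 and 599 to 616 of NR_024543.1. This site held 0.960 and 1.40 RPM per RPKM of these transcripts. The third transcript, NR_003672.2, was listed with no site.

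The GAS5, SNHG1 and SNHG7 sites lay at nucleotide 599 or beyond in their transcripts, away from the pyrimidine run shown above for GAS5 and SNHG7. The paper likewise reports that LARP1 sites within 5′UTRs seldom fell on the 5′TOP itself. No site was listed on SNHG5, SNHG6, SNHG8 or SNHG15 in either library. A transcript that is not listed had no cluster that the authors' caller kept, and this is not a value of 0. The lists go down to 0.0002 RPM in growing and 0.0003 RPM in mTOR-inactive cells.

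Sites of at least 1 RPM were thus found on 0 of 8 members in growing cells, where 1.76% of 11738 expressed genes had one, and on 3 of 8 in mTOR-inactive cells, where 3.89% did. Among 2626 genes with a mean RPKM in the range of the members the shares were 2.97% and 6.05%. The summed RPM on the members was 0.0129 in growing and 2543 in mTOR-inactive cells, each distinct site counted once. The members with a site were GAS5, SNHG1 and SNHG7 at log2 RNA changes of 0.50, 0.40 and 0.37, and SNHG15, at 0.36, had none.

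**Figure D3:**
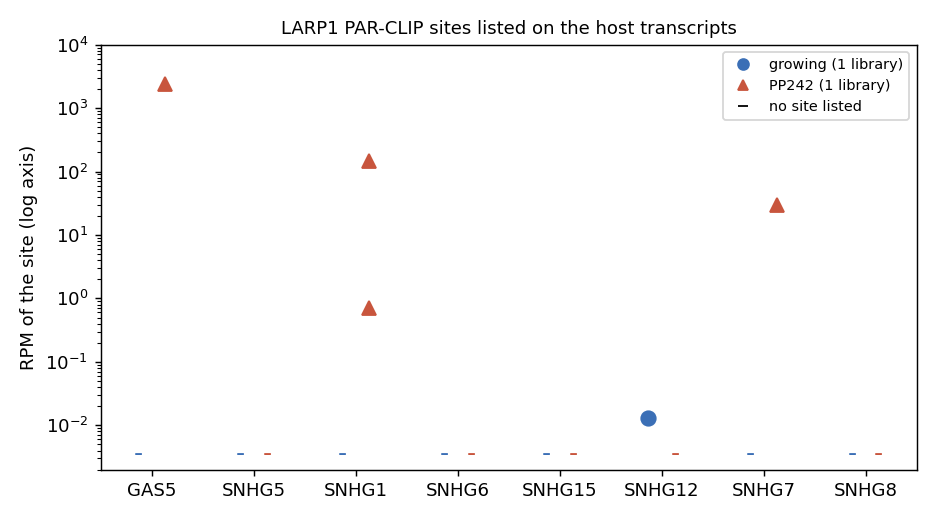
RPM (log axis) of the distinct LARP1 PAR-CLIP sites listed on each host in growing (circles) and PP242-treated (triangles) cells, 1 library each, with a dash where no site is listed. GAS5 reaches 2368 RPM after PP242, and the one growing site, on SNHG12, holds 0.0129 RPM.

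Other lncRNAs that host snoRNAs changed in both directions. Of 15 such genes, 12 had a row and 11 were tested, 3 rose, 2 fell and 6 did not pass, where 3.95% of all genes rose and 8.36% fell. Their median log2 change was 0.06, beside 0.32 for the members and -0.0048 for all genes. EPB41L4A-AS1, the host of SNORA13, rose by 0.27 on the log2 scale (SE 0.04, limma adjusted p = 0.0103), from 11.5 and 11.7 RPKM to 14.6 and 13.8 RPKM. SNHG11 rose by 0.20 (limma adjusted p = 0.0208), from 7.45 and 7.57 RPKM to 8.59 and 8.91 RPKM.

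ZFAS1, the host of the SNORD12 family, rose by 0.20 (limma adjusted p = 0.0348), from 13.3 and 12.5 RPKM to 15.3 and 14.7 RPKM. Of its other rows, NR_003605.1 rose by 0.32 (limma adjusted p = 0.0031), NR_003604.2 by 0.30 (limma adjusted p = 0.0048) and NR_036658.1 by 0.20 (limma adjusted p = 0.025), and NR_003606.2 did not pass. ZFAS1 was the one gene of the list with a PAR-CLIP site of at least 1 RPM, of 545 RPM in mTOR-inactive cells, placed on 4 of its transcripts. This site held 36.5 to 59.6 RPM per RPKM of the transcript, with its whole RPM set over the RPKM of each transcript alone. Reads that match several ZFAS1 transcripts were divided among those rows, while GAS5 was listed as NR_002578.2 only. The ratio therefore cannot be ranked against the 12.9 of the GAS5 site. SNHG4 fell by 0.30 (SE 0.04, limma adjusted p = 0.0132), from 9.16 and 9.73 RPKM to 7.71 and 7.28 RPKM, and its row carries the name of the overlapping gene MATR3, so its reads may be shared with that mRNA. DANCR fell by 0.15 (limma adjusted p = 0.0408), from 61.1 and 63.9 RPKM to 57.1 and 55.3 RPKM. SNHG3, SNHG9, SNHG10, SNHG16, SNHG17 and SNHG20 did not pass. With 1 library left out at a time, SNHG4 and EPB41L4A-AS1 passed in all 4 fits, SNHG11 failed without either growing library or PP242 library 2, ZFAS1 failed without growing library 2 or either PP242 library, and DANCR failed in all 4. The adjusted p in limma then reached 0.0842 for SNHG11, 0.115 for ZFAS1 and 0.13 for DANCR, and without a filter on RPKM no gene named in these lists passed.

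**Figure D4:**
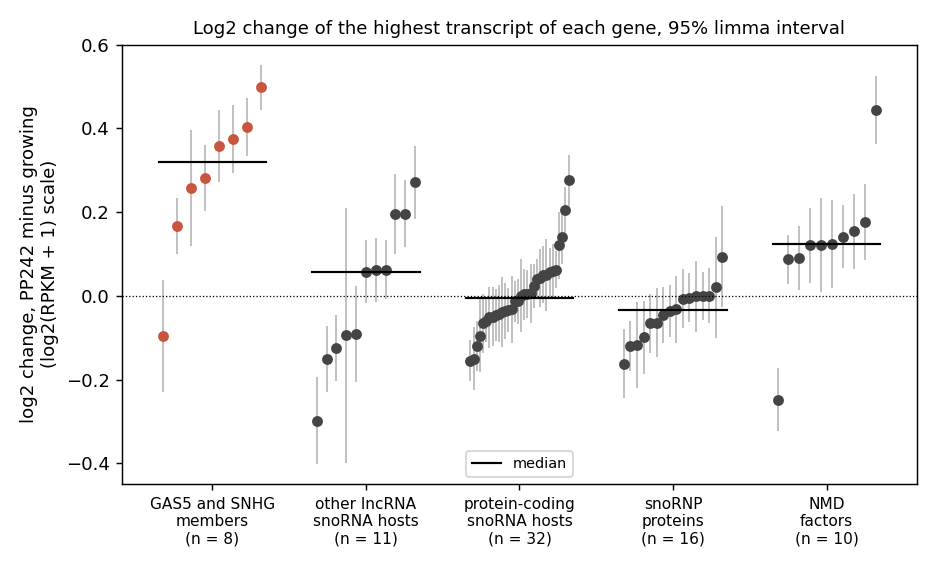
Log2 change after PP242 on the log2(RPKM + 1) scale of the highest transcript of each gene in 5 lists, ordered within a list, with 95% limma intervals and the list median as a line. The members center on 0.32 with SNHG8 below 0, the other lncRNA hosts on 0.06, the protein-coding hosts on -0.0058, the snoRNP proteins on -0.03 and the factors of nonsense-mediated decay (NMD) on 0.12.

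Most protein-coding hosts outside the ribosomal protein genes did not pass the test. Of 32 genes, 3 rose, 3 fell and 26 did not pass, with a median of -0.0058, where 3.95% of all genes rose and 8.36% fell. EEF2, the elongation factor that translocates the ribosome, rose by 0.28 (SE 0.03, limma adjusted p = 0.0037), and EIF4A2, a helicase of translation initiation, by 0.20 (SE 0.02, limma adjusted p = 0.0062). RABGGTB, a subunit of the enzyme that prenylates Rab proteins, rose by 0.14 (limma adjusted p = 0.0281). HSPA8, the constitutive Hsp70 chaperone, fell by 0.15 (limma adjusted p = 0.0094), PPAN, a ribosome assembly factor, by 0.15 (limma adjusted p = 0.0369), and NOP56 by 0.12 (limma adjusted p = 0.0356). That row of NOP56, NR_027700.2, is a noncoding transcript, and its coding row, NM_006392.3, did not pass (log2 change -0.10, limma adjusted p = 0.0602). EEF2 and EIF4A2 passed in all 4 fits with 1 library left out, HSPA8 failed without growing library 1 (adjusted p = 0.0545 in limma), RABGGTB failed without either growing library or PP242 library 1, and PPAN and NOP56 failed in all 4. The adjusted p in limma reached 0.107 for RABGGTB, 0.133 for PPAN and 0.136 for NOP56. Sites of at least 1 RPM lay on 6 of these 32 genes in growing and 9 in mTOR-inactive cells, where 1.76% and 3.89% of expressed genes had one. Some of the 32, such as EEF2 and TPT1 at growing means of 699 and 694 RPKM, were more abundant than any member. These counts were not matched for abundance.

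Few proteins that package snoRNAs passed the test. Of 16 core and assembly proteins, 2 fell, 0 rose and 14 did not pass, with a median of -0.03, and over all genes 8.36% fell. The noncoding row NR_027700.2 of NOP56, the box C/D core protein, went from 91.8 and 89.4 RPKM to 82.8 and 83.7 RPKM, and the coding row NM_006392.3, from 90.5 and 88.2 RPKM to 83.3 and 83.9 RPKM, did not pass (limma adjusted p = 0.0602). NAF1, an assembly factor of box H/ACA particles, fell by 0.16 (SE 0.03, limma adjusted p = 0.0391), from 9.49 and 9.07 RPKM to 8.25 and 8.13 RPKM. Neither fall held in any of the 4 fits with 1 library left out, where the adjusted p in limma was 0.0655 to 0.136 for NOP56 and 0.0639 to 0.145 for NAF1.

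Factors of nonsense-mediated decay, the usual route for spliced RNAs of such hosts, included 3 that rose after PP242 and 1 that fell. Of 10 genes, 6 did not pass, 9 had a log2 change above 0, and the median was 0.12. Over all genes 3.95% rose and 8.36% fell, and 5626 of 11738 had a log2 change above 0. SMG9, a subunit of the kinase complex that phosphorylates UPF1, rose by 0.44 (SE 0.03, limma adjusted p = 0.0021), from 16.8 and 16.3 RPKM to 23.4 and 22.4 RPKM. SMG8, its partner in that complex, fell by 0.25 (SE 0.03, limma adjusted p = 0.0089), from 14.5 and 14.7 RPKM to 11.9 and 12.4 RPKM. UPF3B rose by 0.18 (limma adjusted p = 0.0404) and the helicase UPF1 by 0.14 (limma adjusted p = 0.0429), from 37.0 and 35.3 RPKM to 40.1 and 39.9 RPKM. SMG9 and SMG8 passed in all 4 fits with 1 library left out, UPF3B failed without either growing library or PP242 library 2, and UPF1 failed without growing library 2 or either PP242 library, with adjusted p in limma of up to 0.135 and 0.126. The part of these factors in the members' values was not tested.

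The line's markers VIM, LIN28B, NEFM and NEFL stood at 6.79 to 239 RPKM in the 4 libraries and PAX2 at 0.116 to 0.136 RPKM, while PTPRC, ALB and COL3A1, which mark blood, liver and connective tissue cells, stood at 0 to 0.481 RPKM. VIM was at 212 and 209.8 RPKM in growing cells and 238 and 239 RPKM after PP242. Over all 21014 transcripts tested, 731 were higher and 1356 lower after PP242, and the median of the 21014 log2 changes was -0.0013. This value is not the difference between the library medians. With the libraries scaled to the same median, 870 transcripts were higher and 1105 lower. The log2 change of GAS5 then went from 0.4984 to 0.5104, and that of SNHG8 from -0.09586 to -0.08392.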

How the data were processed

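The 4 mRNA-seq columns hold RPKM made by the authors, who removed linkers, aligned the reads by Bowtie to human transcripts (GRCh37), kept perfect matches and divided multi-matching reads evenly. PAR-CLIP files hold, per site, RPM computed by the authors, a ratio of RPM to the condition's mean RPKM times 1000, deposited as such, and a deposited score related to T-to-C reads that is not described. That score stood at 99.9% to 100.4% of its usual multiple of RPM at the members' sites. Depth cannot be read from these files, since they hold no read totals.

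Of 39711 lines, 1273 repeats were dropped. Members, lists and tests were chosen with earlier results of these data known. Transcripts were named by RefSeq accession, and 1 transcript per gene, with the highest mean RPKM, stood for the gene in lists. The fit was limma 3.58.1 (R 4.3.3) with a trended prior on log2(RPKM + 1) of the 21014 transcripts whose mean reached 1 RPKM, all 4 libraries, Benjamini-Hochberg adjustment and a threshold of 0.05. It was tested on simulated data with 200 transcripts changed by 1 on the log2 scale, of which 200 were called, along with 24 unchanged ones. Those 24 were a larger share of the calls than 0.05. With none changed, 2 of 21014 were called. Smaller changes, such as those of the members (0.50 at most), were not simulated, so their recovery is not known. With 2 against 2 libraries an exact permutation test of 1 gene cannot go below p = 0.333 (two-sided), so none was run. PAR-CLIP has no replicates and got no test. Named genes were all members, in each other list those past the threshold, at most 6 by size of change, and the 3 nearest to the member with the largest change. SNORD47, SNORD76, SNORD80, SNORD22, SNORD31, SNORA24 and SNORA61, which did not pass, were named after their values were seen. SNHG18, SNHG19, MEG8, CD3E and HBB were not analysed here. GENCODE v44 (lifted to GRCh37) and the GRCh37 genome gave the starts.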

Additional observations from a re-analysis of the deposited data

How the results depend on the processing

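The log2 changes of the 8 members kept their sign with other pseudocounts, other RPKM filters, scaling to 1 median, quantile normalization, a replicate block, averaging over transcripts, and each library left out. The count of members past the threshold upward, 7 of 8, fell to 1 without a filter on RPKM. The members were listed with this contrast known, so these counts are no evidence about them. With a library left out, the log2 change ran from 0.49 to 0.51 for GAS5, 0.19 to 0.33 for SNHG12 and 0.14 to 0.20 for SNHG5. The median log2 change of the members, 0.32, then ran from 0.29 to 0.36. Without a filter, counts were 0 higher and 0 lower for the other lncRNA hosts, the protein-coding hosts and the decay factors, 0 lower for snoRNP proteins and snoRNA rows, and 57 higher and 63 lower for all transcripts. Scaling to 1 median left 1 other lncRNA host, 1 protein-coding host, 0 snoRNP proteins and 1 snoRNA row lower. Quantile normalization left 1 snoRNP protein and 1 snoRNA row lower. A mean of at least 5 RPKM gave 2 snoRNA rows higher and 0 lower, and averaging over transcripts gave 382 genes higher and 874 lower. With a library left out, the ranges were 1 to 2 higher and 1 to 2 lower for other lncRNA hosts, 0 to 1 lower for protein-coding hosts, 0 lower for snoRNP proteins, 1 to 2 higher for decay factors, 0 to 1 higher and 2 to 7 lower for snoRNA rows, and 310 to 348 higher and 553 to 741 lower for all transcripts. PAR-CLIP sites of at least 1 RPM alone gave 0 members and 0 RPM in growing cells. The cause of these changes was not tested.

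Replicate numbers are shared across conditions, and the deviations of same-numbered libraries correlated at 0.04 across transcripts. This value cannot show whether same-numbered libraries shared a culture or batch, and the main fit used no block. With the replicate block, 7 members were higher, 1 other lncRNA host was lower (DANCR no longer passed), 1 snoRNA row was higher and 6 were lower, and all transcripts gave 716 higher and 1419 lower. RPKM alone give no depth, and PAR-CLIP with 1 library per condition gives no error.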

Other observations

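SNHG29, another snoRNA host, was in none of the lists and was chosen after its values were seen. Its 32 transcript rows share reads and are not separate observations. They stood at 1.64 to 10.9 RPKM in growing cells. Both PP242 libraries lay above both growing libraries in all 32, where 28.5% of all transcripts did. The log2 changes ran from 0.10 to 0.27, and 29 rows passed the threshold upward, where 3.48% of all transcripts did. A LARP1 site of 2.93 RPM was listed on SNHG29 transcripts in mTOR-inactive cells, at nucleotides 69 to 85, and its deposited T-to-C score stood at 0.121% of the usual multiple of RPM, beside 99.9% to 100.4% at the sites of GAS5, SNHG1, SNHG7 and SNHG12.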
